A study of Mus musculus with 30 samples.

Results

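The PGC-1 coactivators, the estrogen-related receptors (ERRs) and their partners in mitochondrial gene expression were followed in the gastrocnemius of mice kept on 2 light schedules. The 9 genes were taken by symbol from the 56951 symbols of the deposited tables: the coactivators Ppargc1a (PGC-1α), Ppargc1b (PGC-1β) and Perm1, the receptors Esrra, Esrrb and Esrrg (ERRα, ERRβ and ERRγ), and the factors Nrf1, Gabpa and Tfam. All 9 passed the filter on low genes, which left 12030 genes to test. The animals were male wild-type C57BL/6J mice, housed singly with a running wheel, and each gave 1 library of poly(A)-enriched RNA from gastrocnemius collected together with plantaris. Levels are given in FPKM, fragment counts scaled to exon length and library total, and differences as log2 fold changes of ADV over LD. The LD group (n = 14) stayed on a fixed light-dark cycle of 12 h and 12 h with lights on from 8 to 20 h. The ADV group (n = 16) had that cycle advanced by 8 h every 4 days, and both schedules ran for 64 weeks. The mice were 14 weeks old when the schedules began. The paper reports that ADV mice were heavier and less active than LD mice, and the part of this in the differences below was not tested. They were killed over a span of several hours in the daytime, when both groups were in the same light phase. The hour is not given for single mice, so whether mice or groups were matched by hour cannot be checked.

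PGC-1α and PGC-1β bind no DNA themselves: they dock on nuclear receptors such as the ERRs and on NRF1, and raise transcription of genes for fatty acid oxidation, the citric acid cycle and the respiratory chain. The ERRs are orphan nuclear receptors that bind a single extended hormone response element and are most active in tissues with high energy use, such as heart, brown fat and oxidative muscle fibers. PERM1 is a muscle protein induced by PGC-1 and ERR that in turn supports the expression of ERR target genes. NRF1 and GABP (NRF-2) act on promoters of nuclear genes for mitochondrial proteins, and TFAM, one of their products, packages the mitochondrial genome and takes part in its transcription.

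Between 18875468.5 and 28512674 read pairs per library were counted on exons, and the group medians were 21711467.5 (LD) and 22152249.25 (ADV). Of each library's read total, 90.9% to 91.3% lay on exons in LD and 91.1% to 92.7% in ADV, a difference that was not tested. Fast fiber markers had summed levels of 51258 to 71330 FPKM in LD and 47878 to 68692 FPKM in ADV, and no listed marker was at 0 in a whole group. Library LD 23 stood apart: its 7 slow fiber markers summed to 52.8 FPKM, against a median of 608 FPKM in LD and 832 FPKM in ADV, so the main results are also given without it. All 7 slow fiber markers had a higher fitted level in ADV (median log2 fold change 0.46) and none passed the test. Morning-high clock genes passed the test as higher in 3 of 5 cases, evening-high clock genes as lower in 7 of 7, and immediate early genes as higher in 5 of 7. Of the markers of other cells, Pecam1 of 5 endothelial genes passed as higher, Pdgfra of 5 fibroblast genes passed as lower, and 0 of 6 adipocyte, 4 Schwann cell, 5 leukocyte or 7 fast fiber genes passed. All 6 adipocyte genes (median log2 fold change 0.65) and all 4 Schwann cell genes (median 0.46) were nevertheless fitted higher in ADV, and their part in the differences below was not tested. The adipocyte genes summed to 29.5 to 176 FPKM in LD and 19.8 to 301 FPKM in ADV, and the Schwann cell genes to 12.8 to 29.6 FPKM and 14.5 to 53.0 FPKM. In bulk RNA, fewer cells of a type and less RNA per cell cannot be told apart.

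In this comparison, Perm1, Esrra and Esrrb were higher in ADV than in LD, at log2 fold changes of 0.41, 0.24 and 0.51, while Ppargc1a (0.54) did not pass the test. Nrf1, Gabpa and Tfam were at 0.04, −0.09 and −0.04. By edgeR's quasi-likelihood test, 3 of the 9 genes had a false discovery rate (FDR, Benjamini-Hochberg over all genes tested) under 0.05, beside 10.9% of all 12030 genes, and all 3 were higher in ADV, beside 5.74% of all genes, and 0 were lower, beside 5.12%. With a fold change over 1.3 as well, which defined a differentially expressed gene (DEG), Perm1 and Esrrb were left, beside 2.09% of all genes (1.45% higher in ADV). Whether the share among the 9 genes differs from that of all genes was not tested.

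**Figure D1:**
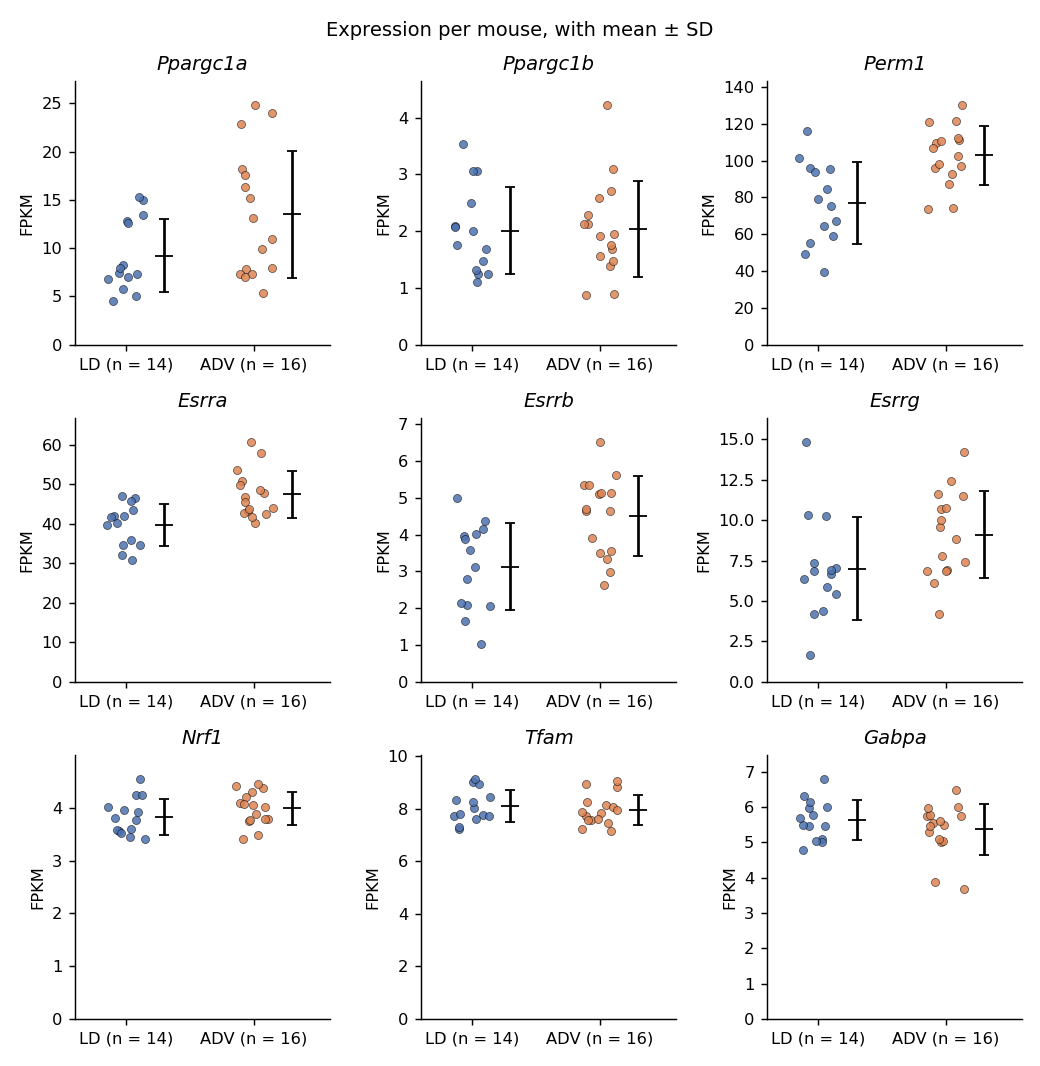
Expression of the 9 genes in FPKM (y axis, from 0) in each mouse of the LD (n = 14) and ADV (n = 16) groups, 1 point per mouse, with the mean ± SD beside the points. The groups overlap in every panel; Perm1, Esrra and Esrrb sit higher in ADV, Ppargc1a is the most scattered in ADV, and Nrf1, Tfam and Gabpa are nearly level.

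Ppargc1a lies on chromosome 5 (GRCm39, 51611592 to 51711264, minus strand) and was counted over a transcript of 6439 bases in 13 exons, with a mean of 1820 reads per library. Its promoter is known to respond to cAMP signaling during exercise and fasting through CREB. The window from 250 bases before to 50 bases after the transcript start (chr5:51711215-51711514, minus strand, read from the GRCm39 genome) is shown because it holds the full palindrome of the cAMP response element, in capitals, 83 to 76 bases before the start.
Ppargc1a: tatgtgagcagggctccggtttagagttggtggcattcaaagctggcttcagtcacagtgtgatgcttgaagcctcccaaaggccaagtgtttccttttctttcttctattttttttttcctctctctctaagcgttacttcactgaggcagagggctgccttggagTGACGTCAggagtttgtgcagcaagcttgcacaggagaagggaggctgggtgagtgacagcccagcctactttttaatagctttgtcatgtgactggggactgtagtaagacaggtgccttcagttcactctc
The letters TGACGTCA, searched on both strands, were in 3.3% of the 12028 windows of the same length from the genes tested, and Ppargc1a was the single one among the 9 genes to hold them. A match is a description of the letters and says nothing of binding in these muscles.

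The Ppargc1a level ran from 4.57 FPKM (mouse 23) over a median of 7.67 FPKM to 15.3 FPKM (mouse 29) in LD, and from 5.32 FPKM (mouse 27) over 12.1 FPKM to 24.8 FPKM (mouse 33) in ADV. The groups overlapped widely: 6 ADV mice lay above the highest LD mouse and 12 of 16 above the LD median. The means were 9.22 ± 3.76 FPKM (SD, n = 14) in LD and 13.5 ± 6.54 FPKM (n = 16) in ADV. The log2 fold change was 0.54 (SE 0.23, 95% confidence interval 0.07 to 0.9997) with an edgeR FDR of 0.111, which missed the threshold, and it was 0.48 without LD 23 (edgeR FDR 0.152). Its coefficient of variation was 40.7% in LD and 48.5% in ADV, the latter the highest among the 9 genes in ADV. Adding the clock score to the fit left Ppargc1a at a log2 fold change of 0.09 (interval −0.54 to 0.73), and with the immediate early score it was 0.15 (interval −0.33 to 0.63). Both scores are built mostly from genes that themselves passed between the groups, so these fits cannot tell the scores apart from the group.

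Perm1, on chromosome 4 (156300325 to 156305764, plus strand, 4 exons), was the most abundant of the 9 genes per length and had a mean of 8641 reads. Its window (chr4:156300075-156300374, plus strand) is shown because it holds, on the opposite strand, the extended nuclear receptor site that the ERRs are known to bind. The letters AAGGTCA appear below as TGACCTT, in capitals, 143 to 137 bases before the start.
Perm1: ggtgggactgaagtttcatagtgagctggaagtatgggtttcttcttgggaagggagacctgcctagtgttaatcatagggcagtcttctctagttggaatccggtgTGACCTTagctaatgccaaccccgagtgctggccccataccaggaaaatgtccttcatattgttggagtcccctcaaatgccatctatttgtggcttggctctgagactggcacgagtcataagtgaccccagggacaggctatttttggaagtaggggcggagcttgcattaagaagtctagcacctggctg
AAGGTCA on either strand was in 3.23% of all 12028 windows. The longer form TCAAGGTCA, which contains it, was in 0.299% of all windows and in none of the 9.

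Perm1 ran from 39.5 FPKM (mouse 23) over a median of 77.3 FPKM to 116 FPKM (mouse 29) in LD, and from 73.9 over 105 to 130 FPKM in ADV. Of the LD mice, 6 of 14 lay below the lowest ADV mouse, and 14 of 16 ADV mice lay above the LD median. The means were 76.9 ± 22.1 FPKM in LD and 103 ± 15.9 FPKM in ADV. The log2 fold change was 0.41 (interval 0.17 to 0.64, edgeR FDR 0.0253), and without LD 23 it was 0.35 (edgeR FDR 0.0300). The spread was also narrower in ADV, with a coefficient of variation of 15.5% against 28.8% in LD, a difference that was not tested.

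Ppargc1b, on chromosome 18 (61431581 to 61533471, minus strand), was counted with a mean of 162 reads, the fewest of the 9 genes. It encodes the PGC-1 relative that is linked to basal mitochondrial content. Its level ran from 1.11 to 3.54 FPKM around a median of 1.87 FPKM in LD, and from 0.88 to 4.22 FPKM around 1.93 FPKM in ADV. The groups covered nearly the same range. The means were 2.01 ± 0.77 FPKM in LD and 2.04 ± 0.84 FPKM in ADV, with a log2 fold change of 0.01 (interval −0.38 to 0.39, edgeR FDR 0.988). The interval is wide enough to include log2 fold changes such as that of Esrra in either direction. Its exons share 7.01% of their bases with Gm46627 on the other strand, and whether the counting used the strand is not given in the sources used here.

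Esrrb, on chromosome 12 (86468418 to 86568399, plus strand), was the rarest receptor, with a mean of 394 reads. ERRβ is best known from pluripotent cells, trophoblast and the inner ear, and with ERRγ marks oxidative muscle. Its level ran from 1.03 FPKM (mouse 23) over a median of 3.34 FPKM to 4.99 FPKM (mouse 29) in LD, and from 2.63 over 4.68 to 6.51 FPKM in ADV. The ADV mice were again shifted up within an overlapping range, with 13 of 16 above the LD median and 7 above the highest LD mouse. The means were 3.12 ± 1.18 FPKM in LD and 4.51 ± 1.08 FPKM in ADV. The log2 fold change was 0.51 (interval 0.18 to 0.85, edgeR FDR 0.0395), and without LD 23 it was 0.44 (edgeR FDR 0.0445). When each library was left out in turn, Esrrb passed in 17 of 30 fits, and its highest FDR was 0.0695 (edgeR, without LD 28), whereas Perm1 and Esrra passed in 30 of 30.

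Esrrg, on chromosome 1 (187730024 to 187947082, plus strand), had a mean of 1042 reads. ERRγ is the receptor most tied to slow, oxidative fibers. Its level ran from 1.64 FPKM (mouse 23) over a median of 6.75 FPKM to 14.8 FPKM (mouse 29) in LD, and from 4.20 over 9.21 to 14.2 FPKM in ADV. No ADV mouse exceeded the highest LD mouse, although 14 of 16 lay above the LD median. The means were 7.01 ± 3.17 FPKM and 9.11 ± 2.69 FPKM, and the log2 fold change of 0.36 did not pass (interval −0.03 to 0.76, edgeR FDR 0.201). Without LD 23 it was 0.28 (edgeR FDR 0.250).

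Esrra, on chromosome 19 (6888346 to 6899176, minus strand, 7 exons), was the most abundant receptor, with a mean of 2392 reads. ERRα is the main partner of PGC-1α at genes of oxidative metabolism, and its own gene is a known ERR target. Its window (chr19:6899127-6899426, minus strand) is shown because it was the single one of the 9 with the core of the NRF1 motif, in capitals, 34 to 27 bases before the start.
Esrra: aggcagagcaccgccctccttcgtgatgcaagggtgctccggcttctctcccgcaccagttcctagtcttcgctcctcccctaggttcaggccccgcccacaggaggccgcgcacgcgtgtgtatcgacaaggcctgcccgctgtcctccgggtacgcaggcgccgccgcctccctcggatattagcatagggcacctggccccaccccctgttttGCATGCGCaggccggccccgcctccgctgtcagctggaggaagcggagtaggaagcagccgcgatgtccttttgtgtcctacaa
The core GCATGCGC was in 5.07% of all windows, and the longer NRF1 motif, in which GC comes before that core, in 1.9% of all and in none of the 9. None of the 9 windows held CCGGAAGT (the GABPA motif), the MEF2 motif or the E-box CACGTG, searched on both strands, which were in 7.91%, 0.183% and 9.95% of all windows.

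The Esrra level ran from 30.8 FPKM (mouse 33) over a median of 40.9 FPKM to 46.9 FPKM in LD, and from 40.1 over 46.1 to 60.6 FPKM (mouse 34) in ADV. It had the lowest FDR of the 9 genes, and 15 of 16 ADV mice lay above the LD median, 7 above the highest LD mouse, and 6 LD mice below the lowest ADV mouse. The means were 39.7 ± 5.31 FPKM in LD and 47.4 ± 5.89 FPKM in ADV. The log2 fold change was 0.24 (interval 0.12 to 0.37, edgeR FDR 0.0136), and it was 0.22 without LD 23 (edgeR FDR 0.0218). The Esrra transcript had the highest GC content of the 9 (61.8%), and with each library's trend of expression on GC content removed, its log2 fold change was 0.10 (interval −0.04 to 0.23, edgeR FDR 0.391). Of its exon bases, 65.5% are shared with Trmt112 on the other strand, a gene listed at a mean of 11.8 FPKM with a log2 fold change of 0.14 (edgeR FDR 0.1001).

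In order of level per length (FPKM) among the receptors, Esrra was highest, Esrrg next and Esrrb lowest, and the range of Esrra overlapped neither of the others in either group.

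The 3 factors that act on nuclear and mitochondrial promoters were nearly level between the groups, and Nrf1 and Tfam varied little between mice. The lowest and highest mice were at 3.42 and 4.54 FPKM for Nrf1 in LD and at 3.42 and 4.44 FPKM in ADV. For Tfam they were at 7.21 and 9.11 FPKM in LD and at 7.15 and 9.04 FPKM in ADV. Gabpa ran from 4.79 to 6.78 FPKM in LD and from 3.69 (mouse 34) to 6.49 FPKM in ADV. The groups overlapped almost fully for all 3, apart from low ADV mice in Gabpa. Nrf1 (chromosome 6, 30048030 to 30144859, plus strand, mean 178 reads) was at 3.83 ± 0.34 FPKM in LD and 3.99 ± 0.31 FPKM in ADV, with a log2 fold change of 0.04 (interval −0.06 to 0.14, edgeR FDR 0.580). These intervals are narrow beside those of the coactivators. Tfam (chromosome 10, 71061294 to 71074110, minus strand, mean 812 reads) was at 8.09 ± 0.62 FPKM and 7.95 ± 0.58 FPKM, with a log2 fold change of −0.04 (interval −0.12 to 0.04, edgeR FDR 0.540). Gabpa (chromosome 16, 84632012 to 84660667, plus strand, mean 665 reads), the DNA-binding subunit of GABP, was at 5.64 ± 0.57 FPKM and 5.36 ± 0.73 FPKM. Its log2 fold change was −0.09 (interval −0.21 to 0.03, edgeR FDR 0.317). The coefficients of variation of Nrf1 and Tfam were 7.25% to 8.96%, below those of the coactivators and receptors. Gabpa shares 9.86% of its exon bases with Atp5pf on the other strand, which was listed at 344 FPKM.

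**Figure D2:**
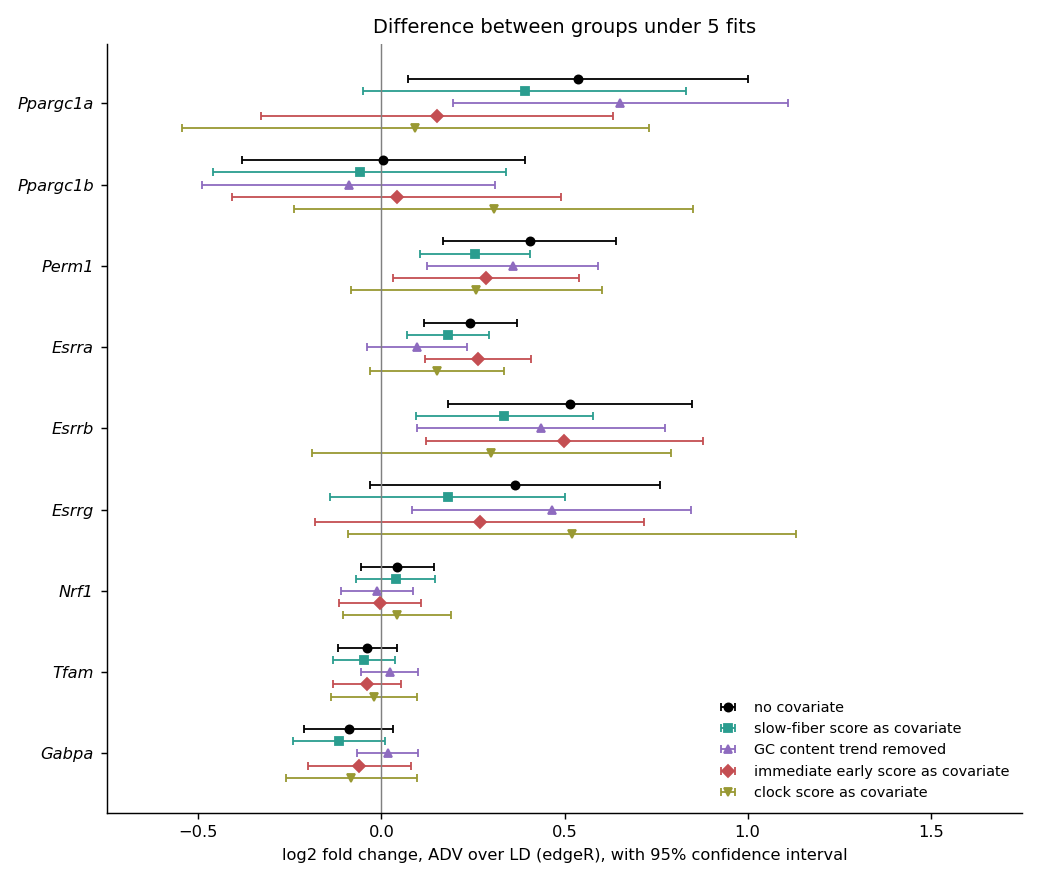
Log2 fold change of ADV over LD (x axis, edgeR, with 95% confidence interval) for each of the 9 genes (y axis), without a covariate and in 4 further fits: the slow-fiber, immediate early or clock score as covariate, and the GC content trend removed. Perm1, Esrra, Esrrb, Esrrg and Ppargc1a are right of 0 in all 5 fits, and Ppargc1a moves from 0.54 to 0.09 with the clock score. With the clock score the intervals of all these genes include 0.

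Several measured properties of the libraries moved with the groups, and their part in the differences was not tested. The slow-fiber score (mean z score of the 7 markers) was −0.33 ± 1.18 in LD and 0.29 ± 0.65 in ADV. With it as a covariate, Perm1 (log2 fold change 0.26, edgeR FDR 0.0413) and Esrra (0.18, edgeR FDR 0.0485) still passed and Esrrb did not (0.34, edgeR FDR 0.0831). The clock score, morning-high minus evening-high genes, was −1.11 ± 1.21 in LD and 0.97 ± 0.81 in ADV. With it as a covariate, Perm1 was at 0.26, Esrra at 0.15 and Esrrb at 0.30, and 0 of 12030 genes passed an FDR of 0.05 (edgeR, 1427 at an unadjusted p under 0.05 beside 3615 without the covariate). Of the genes in this score, 3 of 5 morning-high and 7 of 7 evening-high ones themselves passed between the groups. That fit therefore cannot tell the clock score apart from the group. With the immediate early score, none of the 9 genes passed, at log2 fold changes of 0.29 for Perm1, 0.27 for Esrra and 0.50 for Esrrb, and 162 of all genes passed by edgeR. The slope of expression on GC content was −0.07 ± 0.06 in LD and 0.06 ± 0.12 in ADV, in log2 units per 10 points of GC content, and with that trend removed 0 of the 9 genes and 603 of all genes passed by edgeR. Perm1 was then at 0.36 (edgeR FDR 0.0605), Esrrb at 0.44 (edgeR FDR 0.110) and Ppargc1a at 0.65 (edgeR FDR 0.0790).

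The other genes of the pathway came in 4 lists, and 7 of their genes passed besides Esrra itself. Of 22 coregulators of PGC-1 and ERR, 0 passed as higher and 3 as lower in ADV, 13.6% of the list beside 10.9% of all genes, with a list median log2 fold change of −0.02 beside 0.0035 over all genes. Nrip1 (RIP140, a corepressor of ERR and PGC-1 target genes in muscle) fell from 4.73 ± 1.34 FPKM in LD to 3.60 ± 0.95 FPKM in ADV (log2 fold change −0.42, edgeR FDR 0.0477), but stood at 0.03 with the clock score as covariate, where no gene passed. Prkaa2 (the catalytic AMPK subunit prevalent in muscle, a PGC-1α kinase) fell from 31.2 ± 2.15 FPKM to 26.2 ± 4.05 FPKM (−0.26, edgeR FDR 0.0130). Atf2, a transcription factor that acts on the Ppargc1a promoter, fell from 4.08 ± 0.27 FPKM to 3.69 ± 0.43 FPKM (−0.16, edgeR FDR 0.0484), and was at −0.04 with the GC content trend removed, past the threshold no longer. The most abundant of the list, Mef2c and Lpin1, were at log2 fold changes of −0.10 (edgeR FDR 0.407) and −0.07 (edgeR FDR 0.679).

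Of 15 genes for transcription and replication of mitochondrial DNA, 2 passed as higher and 0 as lower, 13.3% of the list beside 10.9% of all genes, with a median of 0.01. They were Polrmt, the mitochondrial RNA polymerase (log2 fold change 0.16, edgeR FDR 0.0372), and Twnk, the replicative helicase (0.14, edgeR FDR 0.0416). Neither passed with the GC content trend removed (0.03 and 0.09) or with the clock score (0.27 and 0.02). The abundant members Lonp1, a protease of the matrix that degrades TFAM, and Tfb2m, the transcription factor that works with POLRMT, were at 0.08 (edgeR FDR 0.102) and −0.03 (edgeR FDR 0.656). Of 13 protein-coding genes of the mitochondrial genome, 0 passed in either direction and all 13 were fitted lower, with a median of −0.17. With the GC content trend removed, mt-Co1 and mt-Cytb, the most abundant, turned from −0.07 and −0.06 to 0.06 and 0.09. Libraries were made from poly(A) RNA, and the 13 genes were counted unevenly. Mean reads were 44.9 for mt-Atp8, 69.1 for mt-Nd3, 90.4 for mt-Nd4l, 205 for mt-Atp6, 400 for mt-Co3 and 442 for mt-Co2. These were at log2 fold changes of −0.43 (mt-Atp8) to −0.12 (mt-Co2). The others had 1136 (mt-Nd6) or 183093 (mt-Nd4) to 853047 (mt-Co1), and those past mt-Nd6 were at −0.165 (mt-Nd5) to −0.05 (mt-Nd4). The list median and the mitochondrial genome score weigh all 13 alike.

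Of 29 known ERR and PGC-1 targets measured, 3 passed as higher and 0 as lower, 10.3% of the list beside 10.9% of all genes, while 27 were fitted higher beside 6132 of 12030 among all genes, with a median of 0.14. Those that passed were Esrra, Cox6a2 (the muscle subunit of cytochrome c oxidase, 792 ± 105 FPKM in LD, log2 fold change 0.22, edgeR FDR 0.0312) and Uqcrc1 (a core subunit of complex III, 0.21, edgeR FDR 0.0199). Neither Cox6a2 nor Uqcrc1 passed with the slow-fiber score as covariate (0.16 and 0.15) or with the GC content trend removed (0.18 and 0.12). The same held with the clock score (0.13 and 0.13) and the immediate early score (0.21 and 0.22). The most abundant, Slc25a4 (the adenine nucleotide carrier, 1571 to 1749 FPKM from LD to ADV in the means) and Atp5f1b (the beta subunit of ATP synthase, 1236 to 1399 FPKM), missed the threshold at edgeR FDRs of 0.0591 and 0.0674. The slow fiber markers, whose summed level ran from 52.8 to 1073 FPKM in LD and from 265 to 2097 FPKM in ADV, were fitted higher as well, and their part was not tested.

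**Figure D3:**
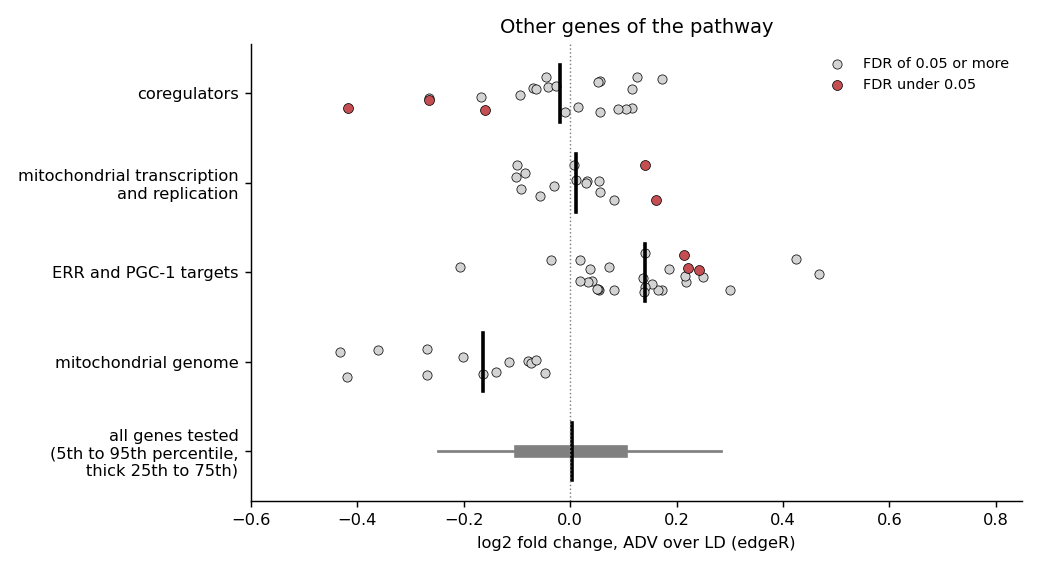
Log2 fold change of ADV over LD (x axis, edgeR) for each gene of 4 lists (rows), red where the FDR was under 0.05, with black bars at list medians and, at the bottom, the spread over all genes tested. The targets lie mostly right of 0 (median 0.14) and the mitochondrial genome left of it (median −0.17).

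Within LD, Perm1 and the 3 receptors correlated with each other, in all pairs among them, while Ppargc1a and Ppargc1b did so with few of the genes. Of 36 pairs among the 9 genes, 10 passed in LD and 2 in ADV at an adjusted p of 0.05 (Spearman, two-sided permutation tests with 100000 draws, adjusted over the 72 relations). By Pearson's r with the same tests, 11 passed in LD and 3 in ADV, the third being Esrra with Esrrb (r = 0.65, permutation p = 0.00661, adjusted p = 0.0397). The median rho was 0.549 in LD and 0.0721 in ADV, and the difference between the groups was not tested. A rho of at least 0.6 was found for 16 of 36 pairs in LD, beside 3.53% of all 72354435 pairs of tested genes, and for 3 of 36 in ADV, beside 2.22%. A rho of −0.6 or less was found for 0 of 36 pairs in each group, beside 3.36% of all pairs in LD and 1.79% in ADV.

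The strongest pair in LD was Perm1 and Esrrb, with rho = 0.94 (permutation p = 1e-05, the smallest the draws can give, adjusted p = 0.00072) and r = 0.93 (permutation p = 1e-05). Without the 2 mice farthest from the median of Perm1 r was 0.86. In ADV the same pair had rho = 0.73 (permutation p = 0.00192, adjusted p = 0.0230) and r = 0.74 (p = 0.00106), and r fell to 0.44 without the 2 farthest mice, so the relation in ADV rests partly on them. Esrrb and Esrrg had rho = 0.87 in LD (permutation p = 0.00011, adjusted p = 0.00336) and 0.76 in ADV (permutation p = 0.00105, adjusted p = 0.0189). Their r was 0.89 in LD (permutation p = 2e-05) and 0.72 in ADV (permutation p = 0.00149), and 0.71 and 0.72 without the 2 farthest mice. Perm1 and Esrrg had rho = 0.86 in LD (permutation p = 0.00014, adjusted p = 0.00336) and 0.43 in ADV (permutation p = 0.102, adjusted p = 0.259).

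Mouse LD 23 was lowest in Perm1, Esrrb, Esrrg, Ppargc1a and Ppargc1b alike, and without it 3 of 36 LD pairs passed in place of 10. Those were Perm1 with Esrrb (rho = 0.92, n = 13), Esrrb with Esrrg (0.84) and Perm1 with Esrrg (0.82), each by the permutation test (adjusted p = 0.00288, 0.0189 and 0.0189). Ppargc1a, with LD 23 included, went with Perm1 in LD (rho = 0.74, permutation p = 0.00328, adjusted p = 0.0295) and not past the threshold in ADV (rho = 0.35, permutation p = 0.180, adjusted p = 0.402). With Ppargc1b it had rho = 0.05 in LD and −0.28 in ADV, neither past the threshold (permutation test, adjusted p = 0.976 and 0.512).

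**Figure D4:**
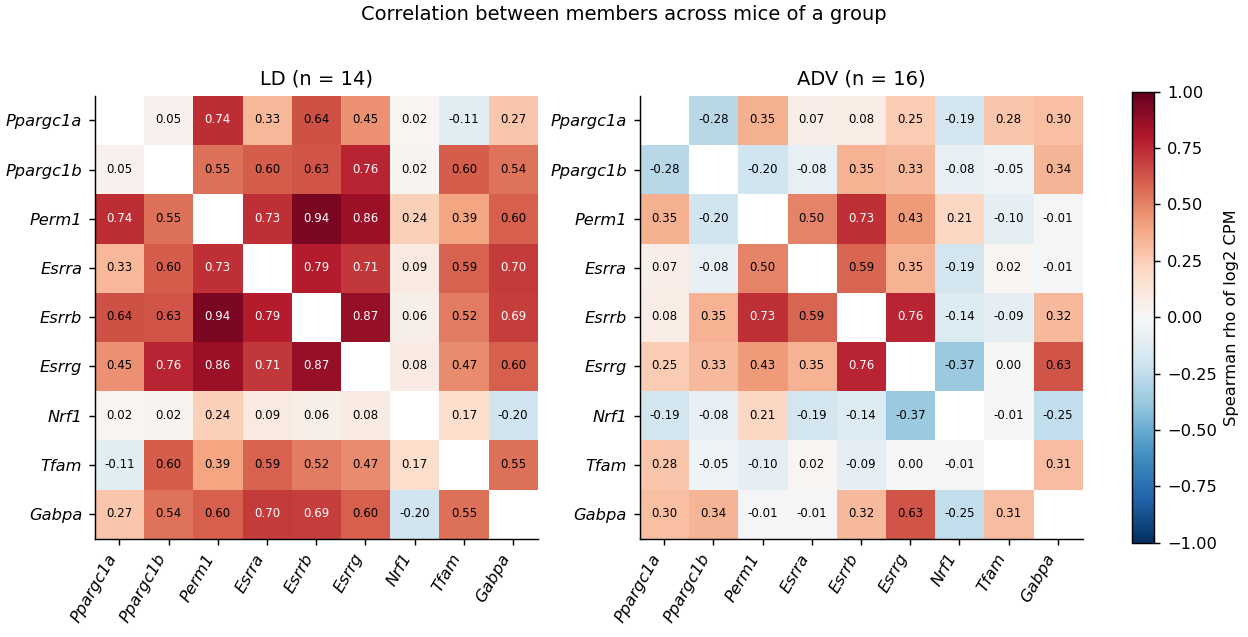
Spearman rho of log2 CPM (color, from −1 to 1) for each pair of the 9 genes across the 14 LD mice (left) and the 16 ADV mice (right). Perm1, Esrra, Esrrb and Esrrg form a block of high values in LD, from 0.71 to 0.94, and the ADV values are lower for most pairs.

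Correlations of the 9 genes with 6 measures of the libraries gave 9 relations past an adjusted p of 0.05 by Spearman's rho, all in LD, after adjustment over both groups. By Pearson's r, 16 passed in LD and 6 in ADV. By rho without the 2 farthest libraries, 1 passed in LD and 2 in ADV, and on log2(FPKM + 0.1) 10 passed in LD and 2 in ADV. Within LD, the score of the ERR and PGC-1 targets, computed without any of the 9 genes, rose with Esrrb (rho = 0.93, permutation p = 1e-05, adjusted p = 0.00108, r = 0.98, permutation p = 1e-05, 0.96 without the 2 farthest mice). It also rose with Perm1 (rho = 0.84), Esrra (0.83), Esrrg (0.82) and Gabpa (0.78) by the same test. Without LD 23 (n = 13) Esrrb (rho = 0.92), Perm1 (0.80) and Esrra (0.79) still passed, whereas Esrrg (0.77) and Gabpa (0.73) did not (permutation test, adjusted p = 0.0612 and 0.0913). The slow-fiber score rose with Perm1 (rho = 0.85, permutation p = 0.0003, adjusted p = 0.0110), Esrrb (0.83) and Esrra (0.75). LD 23 had the lowest slow-fiber score, and without it Perm1 (rho = 0.81) and Esrrb (0.79) passed (permutation test, adjusted p = 0.0477 for each) and Esrra did not (0.69, adjusted p = 0.141). The points share depth and GC trend: Gabpa fell with the GC slope (rho = −0.78, permutation p = 0.00159, adjusted p = 0.0215), and not past the threshold without LD 23 (rho = −0.73, permutation test, adjusted p = 0.0913).

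In ADV 0 of 54 relations passed by Spearman's rho. The targets score had rho = 0.60 with Perm1 (permutation p = 0.0167, adjusted p = 0.129), 0.54 with Esrra and 0.51 with Esrrb. By Pearson's r these did pass, at 0.63, 0.70 and 0.69 (permutation test, adjusted p = 0.0394, 0.0189 and 0.0174), and without the 2 farthest mice r was 0.52, 0.48 and 0.36. Slow fibers with Perm1 (r = 0.65), the GC slope with Gabpa (r = −0.79) and the mitochondrial genome with Tfam (r = 0.69) passed by r as well (permutation test, adjusted p = 0.0319, 0.0106 and 0.0174). Without the 2 farthest mice r was 0.41, −0.29 and 0.54, so the relation of Gabpa in ADV rests largely on them. The calls in ADV therefore depended on the measure of correlation. Tfam and the mitochondrial genome score had rho = 0.59 in ADV (permutation p = 0.0174, adjusted p = 0.129) and 0.09 in LD (permutation p = 0.772, adjusted p = 0.948). Ppargc1a and the clock score had rho = 0.56 in LD (permutation p = 0.0412, adjusted p = 0.178) and −0.11 in ADV (permutation p = 0.688, adjusted p = 0.948). Ppargc1a and the immediate early score had rho = 0.58 in ADV (permutation p = 0.0212, adjusted p = 0.129) and 0.39 in LD (permutation p = 0.169, adjusted p = 0.434).

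**Figure D5:**
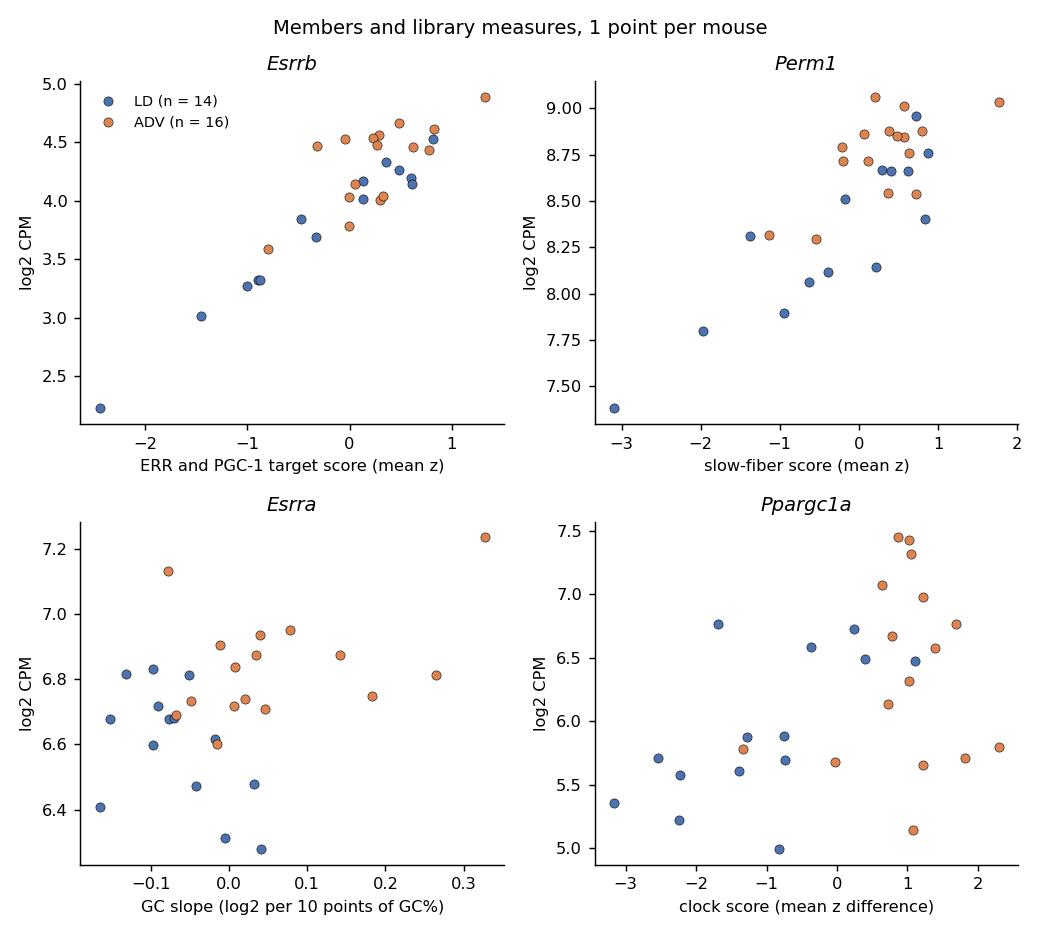
Log2 CPM of 4 of the genes (y axes) against library measures (x axes), 1 point per mouse, LD blue (n = 14) and ADV orange (n = 16): Esrrb with the targets score, Perm1 with the slow-fiber score, Esrra with the GC slope and Ppargc1a with the clock score. Esrrb lies close to a line with the targets score in LD (rho = 0.93), and the clock score is lower in most LD than ADV mice.

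The genes whose level was most like each of the 9, ranked by the smaller of the rho within LD (n = 14) and within ADV (n = 16), are given as a description. For Perm1 these included Atp1b1 (0.95 and 0.88) and Zdhhc23 (0.94 and 0.81). For Esrra they were Cycs (cytochrome c, 0.95 and 0.86), Phb2 (prohibitin of the inner mitochondrial membrane, 0.87 and 0.86) and Mcrip2 (0.93 and 0.85). Esrrb was closest to Bdh1 (a ketone body enzyme, 0.92 and 0.86), Ppip5k1 (0.95 and 0.84) and Cluh (an RNA-binding protein for mitochondrial protein mRNAs, 0.95 and 0.84). Esrrg was closest to Akap1 (0.89 and 0.87), Hccs (0.78 and 0.81) and Ppara (0.78 and 0.80). Ppargc1a was closest to Atp6v1a (0.76 and 0.80), Ube2h (0.75 and 0.77) and Ell (0.74 and 0.77). Ppargc1b was closest to Macf1 (0.89 and 0.74), and Nrf1 had the loosest nearest gene, Rpl8 (0.55 and 0.62). Tfam was closest to Coq3 (0.71 and 0.69) and Gabpa to Mindy2 (0.77 and 0.82).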

How the data were processed

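Gastrocnemius libraries of 14 LD and 16 ADV mice were grouped by their labels. The authors mapped reads to GRCm39 with STAR (2.7.10a in the submitters' processing notes) and counted them on exons with HOMER (4.11). The authors deposited these as estimated counts without normalization. A mate adds 0.5 read, which left 14.8% of values fractional, and every value was rounded to a whole number before the tests. The authors also deposited FPKM values, scaled to exon length and library total. The paper describes the sequencing as stranded, but the strand option of the counting is not given in the sources used here.

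Genes with a mean over 20 reads and over 0.5 FPKM were tested in R 4.3.3 by the quasi-likelihood method of edgeR 4.0.16 after TMM scaling, with Benjamini-Hochberg adjustment over 12030 genes. Confidence intervals are 95%. Correlations used log2 CPM with a prior count of 0.5 and 100000 permutations (scipy 1.17.1). Scores are mean z scores of listed genes, without the 9 genes. Where a symbol had several rows, the longest with a mean over 20 reads was kept. Tests on simulated data with 200 of 12030 genes changed by a fold of 2 gave 204 calls, 198 of them changed. Smaller changes, such as those of the 9 genes, were not simulated.

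The 9 genes, the lists and the tests were chosen with earlier results of these data known. Of each pathway list, the genes named were up to 4 past the threshold with the largest change and the 2 most abundant, and for each of the 9 genes up to 3 genes most like it, of which 1 is not reported here. Trmt112, the genes of the mitochondrial genome other than mt-Co1 and mt-Cytb, and the markers Pecam1 and Pdgfra were named after their values were seen. Label numbers shared by LD and ADV mice were not taken as pairs in the main test. Alternatives were DESeq2 1.42.0, limma 3.58.1, other size factors and filters, covariates, a GC content correction (a spline with 4 df, fitted where the mean exceeded 50 reads), a block and leaving out each library. The lists hold no test of their own.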

Additional observations from a re-analysis of the deposited data

How the results depend on the processing

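Perm1, Esrra and Esrrb kept their direction in every fit run, as did Esrrg and Ppargc1a, which did not pass the main test. The count of 251 DEGs was 120 by limma on log2(FPKM + 1), 146 with the slow-fiber score, 165 with the GC content trend removed, 63 with the immediate early score and 0 with the clock score as covariate. Of the 9 genes, 3 passed, against 0 with the clock score, 0 with the GC content trend removed and 0 with the immediate early score. Of the pathway lists 7 genes passed, against 11 by DESeq2, 1 with no filter on low genes, 1 with the slow-fiber score, 4 with the GC content trend removed, and 0 with the clock or immediate early score. The causes were not tested. The rank-sum test on FPKM put Esrrb at an adjusted p of 0.0504 (exact or by permutation), and with no filter on low genes its edgeR FDR was 0.0734.

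The main test did not take the 14 label numbers found in both groups as pairs. Whether they pair the mice is not given in the sources used here. Of 14 same-numbered pairs, 6 had correlated deviations over 0.1 (range −0.26 to 0.43, median 0.01), and 3 LD libraries were closest to their own number. These values do not settle whether same-numbered mice shared conditions. With the replicate block there were 136 DEGs, 3 of the 9 genes and 4 pathway genes. The same 28 libraries without the block gave 151 DEGs, 1 of the 9 genes and 2 pathway genes, and this fit was chosen after seeing the data, as was the immediate early score.

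Leaving out each library gave 188 to 300 DEGs (lowest without LD 28, highest without ADV 23), 2 to 3 of the 9 genes (Esrrb lost its call, at edgeR FDRs of 0.0504 to 0.0695, without LD 26, 28, 30, 33, 34 or 35 or ADV 24, 27, 28, 29, 31, 32 or 34), and 2 to 11 pathway genes for the same libraries. Of the 72 pair relations 12 passed, against 1 without the 2 farthest libraries and 5 without LD 23. Of the score relations 9 passed, all in LD, against 3 without the 2 farthest libraries (1 in LD and 2 in ADV) and 5 without LD 23 (all in LD).

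Values near 0 changed sign. Ppargc1b was at −0.0592 with the slow-fiber score, −0.0895 with the GC content trend removed and −0.0948 to 0.0952 without single libraries. Nrf1 was at −0.0112 with the GC content trend removed and −0.00323 with the immediate early score. With the GC content trend removed Tfam and Gabpa were at 0.0227 and 0.0178, Mef2c at 0.00988, Lonp1 at −0.00782, mt-Co1 at 0.0597 and mt-Cytb at 0.0857. With the clock score Nrip1 was at 0.0328 and Lpin1 at 0.00526.

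The counting error is largest for Ppargc1b and Nrf1, at 162 and 178 reads on average, and whether depth limited a call was not tested.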
